A study of Rattus norvegicus with 35 samples.

Results

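The transcripts described here encode the subunits of the proteasome and the proteins that activate, inhibit or assemble it. They are the 46 rows of the deposited count table whose gene name starts with Psma, Psmb, Psmc, Psmd, Psme, Psmf or Psmg, without Psmb8 and Psmb9, out of 15059 genes in all. All 46 passed the filter on low counts and are among the 14411 genes tested. They comprise the 7 alpha and 8 beta subunits of the 20S core, 6 ATPase and 11 non-ATPase subunits of the 19S cap, 3 chaperones of cap assembly (Psmd5, Psmd9 and Psmd10), 4 activators (Psme1 to Psme4), the inhibitor Psmf1 and 4 chaperones of core assembly (Psmg1 to Psmg4). The remaining 2, Psmc3ip and Psme3ip1, carry the name of a binding partner and are not subunits. Psmc3ip encodes a cofactor of meiotic recombination.

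RNA was sequenced from the hippocampus of female Sprague Dawley rats operated on at 6 months of age, with 5 libraries in each of 7 groups. Sham rats kept their ovaries. The other 6 groups were ovariectomised and, after a washout of 2 weeks, were given vehicle, estradiol (0.16 mg/kg), tamoxifen (3.23 mg/kg), raloxifene (9.68 mg/kg), exemestane (0.16 mg/kg) or anastrozole (4.03 mg/kg) by intraperitoneal injection once a day for 7 days. Tamoxifen and raloxifene are selective estrogen receptor modulators; exemestane and anastrozole inhibit aromatase, the enzyme that makes estrogens. Doses are given as labelled.

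The proteasome is the main protease for proteins tagged with ubiquitin. Its barrel-shaped core is made of stacked rings: alpha subunits form the gated outer rings, and beta subunits form the inner rings that hold the cutting sites. The 19S cap recognises ubiquitin, removes it, unfolds the substrate with its ring of ATPases and feeds it into the core, while other activators can dock in place of the cap. In neurons it turns over synaptic proteins as well as damaged ones. Because subunits enter the complex in fixed proportion, their transcripts are often described as a set that moves together, in human and mouse cells under the transcription factor encoded by Nfe2l1.

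Libraries held 5.58 M to 12.09 M counts (median 8.01 M, where M is mega), and the 46 transcripts took 0.216 to 0.24% of them. The libraries differed in a way the labels do not name. The factors by which the 2 deposited tables differ put 20 in a class called A and 15 in a class called B. A second measure parted the same way: the share of counts from Rn7sl1, a small cytoplasmic RNA that helps target secreted proteins, lay between 4.47 and 6.49% in the former and between 2.9 and 3.84% in the latter. All 5 sham and all 5 estradiol libraries were of class A, as were 4 of vehicle (all but library 4), 3 of anastrozole, 2 of tamoxifen (libraries 1 and 2) and 1 of exemestane (library 5), while all 5 raloxifene libraries were of class B. Class and treatment are thus partly confounded, and for raloxifene their separation rests on vehicle library 4 and on the class difference seen in the other groups. The summed level of 7 markers of hippocampal neurons had a median of 3420 CPM (counts over the library total in M, the total scaled by TMM factors) over class A libraries (1760 to 3690) and of 2870 over class B libraries (2640 to 3070), and raloxifene (2710 to 2990) did not overlap vehicle (3040 to 3490). The astrocyte sum went the other way, with class medians of 2000 and 2310 CPM, while the microglial medians were 156 and 138 and the endothelial ones 138 and 125. The oligodendrocyte medians were 5360 and 5380 CPM. That sum was 5860 to 7170 CPM in vehicle, above raloxifene (4840 to 5730), estradiol (5080 to 5380) and anastrozole (4890 to 5530). Sham (4700 to 8220), tamoxifen (4600 to 6100) and exemestane (4550 to 6250) overlapped vehicle. The lowest neuron sum and the highest sum of thalamic markers (277 CPM, where the median was 70 in that group) were both in sham. The part of these markers in the results below was not tested. Choroid plexus markers ranged from 4.53 to 3230 CPM in sum, with high libraries in both classes. In bulk tissue, fewer cells of a type and less RNA per cell cannot be told apart. The labels do not tie libraries to animals one by one, so p-values measure the spread between these libraries.

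As a whole, proteasome transcripts took up a fairly steady part of the hippocampal transcriptome, somewhat larger in class B libraries. The summed level was 2240 ± 34.9 CPM over class A libraries and 2320 ± 50.8 over class B libraries (SD, n = 20 and 15), with overlapping ranges of 2180 to 2310 and 2230 to 2410. Their summed level was 2180 to 2410 CPM over the 35 libraries, with the lowest group mean in vehicle (2230 ± 47.9; SD, n = 5), the highest in raloxifene (2340 ± 42.7) and tamoxifen (2340 ± 64.8), and the other groups between 2240 and 2280. The median spread between libraries of a group was 0.132 on the log2 scale over the members, against 0.202 over all genes tested, which were not matched for expression level. Psmd2, a large scaffold subunit of the 19S cap, was the steadiest, at 156 to 185 CPM over all libraries. Psmc3ip, the meiotic cofactor, and Psmg3, an assembly chaperone, had the widest ratio of highest to lowest library beside Psmb6. These ratios were 3.64 for Psmc3ip at 6 counts or more per library, 3.13 for Psmg3 and 2.93 for Psmb6.

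Raloxifene libraries differed from vehicle in single subunits, in both directions. The sum over the set was also somewhat higher, at 2310 to 2410 CPM in raloxifene and 2180 to 2280 in vehicle, without overlap. All raloxifene libraries were of class B, and the highest vehicle sum was that of library 4, of class B as well. With edgeR's quasi-likelihood test and Benjamini-Hochberg adjustment, 14 of the 46 members passed an adjusted p of 0.05, 9 higher and 5 lower, in a comparison where 24.8% of all genes tested passed (13.4% higher and 11.4% lower). The median log2 fold change of the members was -0.000857, against -0.0234 over all genes tested, and the median size of the change was 0.139 against 0.22. The share of members called was therefore near that of the transcriptome, and their median change was smaller. Genes of like expression level were not compared.

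Among the 20S alpha subunits, which form the gated ring of the core, 4 of 7 rose with raloxifene and none fell. Psma3 stood at 53.4, 51.7, 57.6, 68.6 and 51.4 CPM in the vehicle libraries and at 85, 76.9, 81.6, 77.1 and 93.1 in the raloxifene libraries. The groups did not overlap, and the highest vehicle value was that of library 4, the one of class B. The log2 fold change was 0.55 ± 0.14 (SE; adjusted p = 0.0128 by edgeR). Psma4 was at 44.8, 43.8, 43.6, 42.8 and 47.4 CPM in vehicle and at 52.8, 59.7, 53.7, 61.3 and 57.3 in raloxifene, again without overlap (0.36 ± 0.099, adjusted p = 0.0152 by edgeR). Unlike for Psma3, the class B vehicle library held the lowest of the vehicle values. Psma6 rose by 0.34 ± 0.098 and Psma5 by 0.20 ± 0.071 (adjusted p = 0.0165 and 0.0405 by edgeR). Psma7, an alpha subunit of the same ring, had a change of -0.21 that did not pass, with 5 raloxifene libraries between 37.9 and 41.9 CPM and vehicle libraries between 41.1 and 48.5.

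Among the 8 beta subunits, 1 fell and none rose. Psmb6, the beta subunit whose site cuts after acidic residues, was at 21.9, 16.5, 23.2, 15.5 and 15.1 CPM in vehicle and at 10.3, 15.1, 10.6, 10.7 and 13.4 in raloxifene. Its lowest vehicle library and highest raloxifene library both round to 15.1 CPM, and the unrounded values did not overlap. The log2 fold change was -0.62 ± 0.21 (adjusted p = 0.0343 by edgeR). The other catalytic subunits did not pass: Psmb5, with the chymotrypsin-like site, had means of 54.4 ± 1.92 CPM in vehicle and 50.2 ± 5.12 in raloxifene, and Psmb7, with the trypsin-like site, 77.7 ± 2.37 and 80 ± 4.51 (SD, n = 5).

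**Figure D1:**
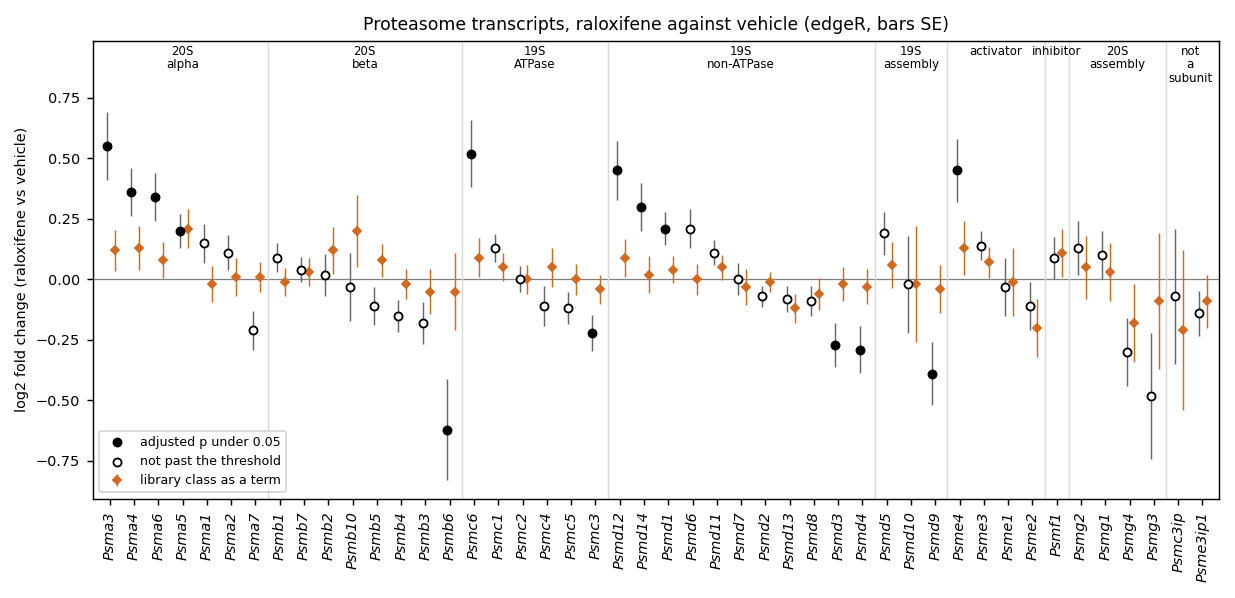
Log2 fold change of each of the 46 members in raloxifene against vehicle libraries, grouped by role; circles are the fit of the 7 groups (filled where the adjusted p is under 0.05), diamonds the fit with library class as a term, and bars the SE. Psma3, Psmc6, Psmd12 and Psme4 lie highest and Psmb6 lowest in the first fit, and none of the 46 passes in the second.

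In the 19S cap, 3 non-ATPase subunits rose and 2 fell, and 1 ATPase went each way. Psmc6, an ATPase of the unfolding ring, was at 41.2, 47, 46.3, 56.5 and 46.5 CPM in vehicle and at 63.4, 66.7, 67.1, 68.3 and 74.1 in raloxifene (log2 fold change 0.52 ± 0.14, adjusted p = 0.0132 by edgeR). The groups did not overlap and the nearest vehicle library was again library 4. Psmc3, an ATPase of the same ring, fell by 0.22 ± 0.075 (adjusted p = 0.0309 by edgeR). Psmd12, a scaffold subunit of the lid, rose from 50.1 ± 2.72 to 68.3 ± 2.64 CPM (SD, n = 5; 0.45 on the log2 scale, adjusted p = 0.0132 by edgeR). Psmd14, the deubiquitinase of the lid, rose by 0.30 and Psmd1, a scaffold of the base, by 0.21 (adjusted p = 0.0388 and 0.0273 by edgeR).

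The 2 non-ATPase subunits that fell were Psmd4 and Psmd3. Psmd4, a ubiquitin receptor of the cap, was at 60.7, 47.2, 57.4, 49.2 and 54.7 CPM in vehicle and at 41.8, 45.5, 44.6, 46.1 and 41.5 in raloxifene, without overlap (-0.29 ± 0.096, adjusted p = 0.0271 by edgeR). Psmd3, a scaffold of the lid, was at 95.3, 96.5, 98, 82.3 and 86 CPM in vehicle and at 70.6, 84.7, 77.1, 71.4 and 75.6 in raloxifene (-0.27 ± 0.091, adjusted p = 0.0311 by edgeR). For Psmd3, vehicle library 4 lay inside the range of the raloxifene libraries. Of the 3 chaperones of cap assembly, Psmd9 fell from 15.6 ± 0.762 to 11.9 ± 0.934 CPM (SD, n = 5; -0.39 on the log2 scale, adjusted p = 0.0307 by edgeR).

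Of the 4 activators only Psme4 passed in raloxifene. It was at 103, 94, 101, 117 and 95 CPM in vehicle and at 154, 136, 126, 152 and 126 in raloxifene (0.45 ± 0.13, adjusted p = 0.0167 by edgeR). Psme1 and Psme2, which form the activator induced by interferon, and Psme3, which forms the nuclear one, did not pass, with changes of -0.03, -0.11 and 0.14. Psmf1 and the core assembly chaperones Psmg1 to Psmg4 did not pass either. In all, 11 members had no overlap between raloxifene and vehicle libraries, 8 higher (Psma3, Psma4, Psma6, Psmc6, Psmd1, Psmd11, Psmd12 and Psme4) and 3 lower (Psmb6, Psmd4 and Psmd9), where 18% of all genes tested had none (11% higher and 7.02% lower).

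Once library class was a term of the model, no member passed for raloxifene, and 1 had an unadjusted p under 0.05 (edgeR; 0.00694% of all genes tested passed the adjusted threshold and 5.3% the unadjusted one). The log2 fold change became 0.12 for Psma3, 0.09 for Psmc6, 0.09 for Psmd12, 0.13 for Psme4, -0.05 for Psmb6 and -0.03 for Psmd4. Of the 14 members Psma5 kept its size, at 0.21 ± 0.081 against 0.20 without class (adjusted p = 0.819 with class by edgeR); its vehicle mean was 32.8 ± 3.36 CPM and its raloxifene mean 37.5 ± 3.08 (SD, n = 5). Within class B alone, where vehicle is library 4 only and is assumed to vary like the other groups, no member passed, and the log2 fold changes were 0.26 for Psma3, 0.25 for Psmc6, 0.40 for Psma4, -0.38 for Psmb6 and -0.18 for Psmd4. The count of 14 fell to 5 without raloxifene library 5 (12.3% of all genes called), to 6 without vehicle library 1 (12.4%), to 7 without vehicle library 3 (12%) and to 9 without vehicle library 2 (14.2%), vehicle library 5 (16.4%), raloxifene library 1 (16.5%) or raloxifene library 3 (18.2%). Without raloxifene library 4 it was 11 (18.7%) and without raloxifene library 2 it was 12 (21.1%). Leaving out vehicle library 4, the only class B library of vehicle, raised it to 16 (31%).

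**Figure D2:**
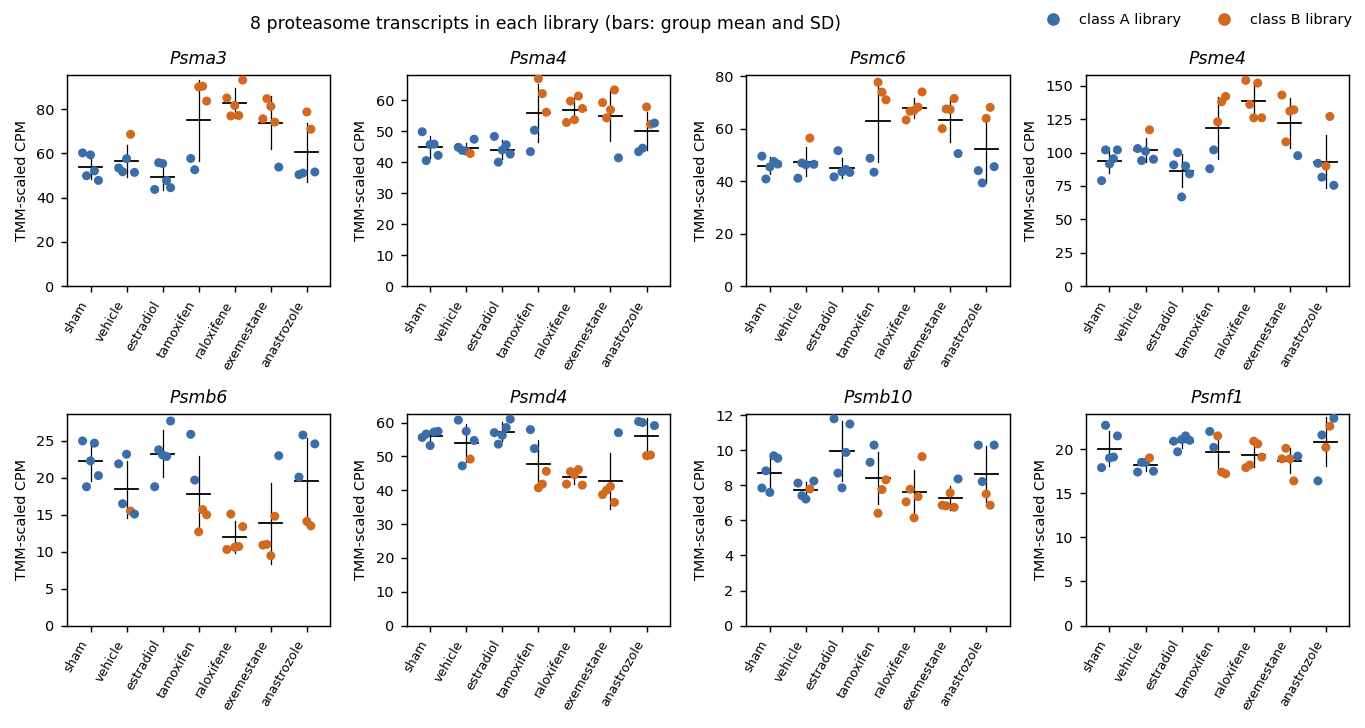
TMM-scaled CPM of 8 members in each of the 35 libraries by group, coloured by library class, with the group mean and SD as bars. Within tamoxifen, exemestane and anastrozole the Psma3 and Psmc6 values of class B libraries lie above those of class A, and Psmb6 values lie below.

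Exemestane gave a smaller count. By edgeR 2 of 46 members passed, both lower, where 6.51% of all genes tested passed (2.45% lower), and 18 had an unadjusted p under 0.05, 9 higher and 9 lower (31.4% of all genes). Psmd4, the ubiquitin receptor, was at 38.7, 40, 41.1, 36.4 and 57 CPM against the vehicle values above (-0.33 ± 0.096, adjusted p = 0.0451 by edgeR). The 4 low libraries were those of class B and the high one, library 5, was the class A library. Psma7, a core alpha subunit, was at 34.5, 38.6, 38.7, 34.6 and 42.5 CPM in exemestane and at 43.2, 48.4, 48.5, 41.1 and 47.3 in vehicle (-0.27 ± 0.081, adjusted p = 0.0454 by edgeR). Its groups overlapped through the same exemestane library 5 and vehicle library 4.

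With class in the model neither passed (Psmd4 -0.15, Psma7 -0.11; 0% of all genes passed), and 2 members had an unadjusted p under 0.05 (6.97% of all genes). Within class A, where exemestane is library 5 only, Psmd4 was 0.06 above vehicle on the log2 scale; within class B, where vehicle is library 4 only, it was 0.34 below (-0.34). The count was 17 (7 higher and 10 lower) without exemestane library 5, where 28.7% of all genes were called, and 10 (6 higher and 4 lower) without vehicle library 4, where 19.5% were. It was 0 without any one of the other 8 libraries, as was the count of all genes, and 10 by DESeq2, which called 18% of the genes it adjusted.

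In tamoxifen no member passed by edgeR or DESeq2, where 0% of all genes passed by edgeR and 0.668% of those DESeq2 adjusted. By edgeR 7 members, all higher, had an unadjusted p under 0.05 (16.4% of all genes, 10.3% higher). Psma4 was at 43.4, 50.3, 66.9, 62.1 and 56.1 CPM and Psmc6 at 48.8, 43.5, 77.8, 74 and 71.1. Against vehicle their log2 fold changes were 0.32 ± 0.099 and 0.41 ± 0.14 (adjusted p = 0.167 and 0.194 by edgeR). In both, libraries 3 to 5, of class B, were high and libraries 1 and 2, of class A, lay near the vehicle range. Psma3 had the same shape, with 57.7 and 52.6 CPM in libraries 1 and 2 and 83.6 to 90.3 in the others. Within class A the changes were 0.06 for Psma4 and 0.03 for Psmc6, and within class B, against vehicle library 4 alone, 0.50 and 0.37. Psmd11, a lid subunit, did not overlap between tamoxifen and vehicle, all its tamoxifen values being higher, where 1.36% of all genes did not (0.562% higher). Without tamoxifen library 2 the count was 4, all higher (4.01% of all genes).

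The receptor modulators were given at different doses, so their values are set side by side. Between tamoxifen and raloxifene no member passed by edgeR or DESeq2 (0% of all genes by edgeR), and 2 had an unadjusted p under 0.05 (8.41% of all genes). These were Psmb6, at 25.9, 19.7, 12.7, 15.7 and 15 CPM in tamoxifen against 10.3 to 15.1 in raloxifene (0.58 ± 0.21, adjusted p = 0.584 by edgeR), and Psmd3, at 101, 93.1, 82.3, 79.4 and 82.5 CPM in tamoxifen against 70.6 to 84.7 in raloxifene (0.21 ± 0.092). The 2 tamoxifen libraries of class A held the highest values of both genes, and among class B libraries alone the changes were 0.26 for Psmb6 and 0.09 for Psmd3.

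The aromatase inhibitors differ in structure, exemestane being a steroid and anastrozole a triazole, and in dose. Between them no member passed by edgeR (0% of all genes), while 17 had an unadjusted p under 0.05, 5 higher and 12 lower in exemestane (27.1% of all genes), and DESeq2 called 7 (12.3% of the genes it adjusted). Psmd4 was at 60.3, 60, 50.2, 50.4 and 59.1 CPM in anastrozole, above 4 of the 5 exemestane libraries (-0.39 ± 0.096, adjusted p = 0.0901 by edgeR). Psma7 was at 51.1, 48.7, 39.5, 40.3 and 51.6 CPM in anastrozole (-0.29 ± 0.081, adjusted p = 0.0901). With class in the model no member passed (0.0278% of all genes), 11 had an unadjusted p under 0.05, 2 higher and 9 lower (12.8% of all genes), and Psmd4 stood at -0.27 ± 0.063 in place of -0.39 (adjusted p = 0.0799 by edgeR). It was lower in the 4 class B libraries of exemestane, at 36.4 to 41.1 CPM, than in the 2 of anastrozole, and the change within class B was -0.37 (adjusted p = 0.0707 by edgeR). The edgeR count was 14 without exemestane library 5 (23.8% of all genes), 14 without anastrozole library 4 (18.6%) and 7 without anastrozole library 3 (10.6%).

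Neither ovariectomy nor estradiol gave a called change among the proteasome transcripts. Between sham and vehicle no member passed by edgeR or DESeq2 (0% of all genes by edgeR), and 1, Psmd13, had an unadjusted p under 0.05 (6.81% of all genes). Psmd13, a lid subunit, was at 52.3, 53.1, 57.6, 52.2 and 50.9 CPM in sham and at 55.5, 56.4, 57.1, 60 and 59.8 in vehicle, overlapping through 1 sham library (-0.12 ± 0.054, adjusted p = 0.677 by edgeR). Psmc4, an ATPase, had the next smallest p, at 58, 56.5, 54.5, 53.2 and 52.1 CPM in sham and at 54.4, 47.8, 49.6, 48.9 and 48.1 in vehicle, overlapping through vehicle library 1 (0.14 ± 0.082, adjusted p = 0.83 by edgeR).

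Between estradiol and vehicle no member passed by edgeR or DESeq2 (0.00694% of all genes by edgeR), and 3, all higher, had an unadjusted p under 0.05 (9.13% of all genes, 4.27% higher). Psmb10, the trypsin-like subunit that replaces Psmb7 in the immunoproteasome, was at 11.8, 8.7, 7.86, 9.88 and 11.5 CPM in estradiol and at 8.13, 7.41, 7.22, 7.8 and 8.25 in vehicle. Its log2 fold change was 0.36 ± 0.14 (adjusted p = 0.424 by edgeR), and 4 of the 5 estradiol libraries lay above every vehicle library. Psmf1, the proteasome inhibitor, was at 20.9, 19.7, 21.1, 21.5 and 21 CPM in estradiol and at 17.4, 18.5, 18.5, 19 and 17.5 in vehicle. These groups did not overlap, where 3.73% of all genes did not (1.88% higher), yet the change of 0.20 ± 0.088 did not pass (adjusted p = 0.494 by edgeR). Library class does not separate these 2 groups except for vehicle library 4, and within class A the changes were 0.37 for Psmb10 and 0.22 for Psmf1. Psmb10 was lower in class B over the whole series, and the order of its group means was estradiol (9.96 ± 1.72 CPM), sham (8.7 ± 0.958), anastrozole (8.64 ± 1.59), tamoxifen (8.42 ± 1.48), vehicle (7.76 ± 0.444), raloxifene (7.6 ± 1.29) and exemestane (7.28 ± 0.694), with neighbours in this order closer than the larger of their SDs (n = 5).

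Between anastrozole and vehicle no member passed by edgeR or DESeq2 (0% of all genes by edgeR), and 1 had an unadjusted p under 0.05 (2.87% of all genes). Psmf1 was at 16.4, 21.6, 20.2, 22.6 and 23.5 CPM in anastrozole, with 4 libraries above every vehicle library and 1 below all of them (0.20 ± 0.087). Psmb2, a core beta subunit, was at 28.7, 32.4, 29.9, 24.2 and 28.5 CPM in anastrozole and at 27, 25.9, 25.8, 23 and 25.7 in vehicle (0.17 ± 0.086). Neither passed in the comparison of library classes.

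In the test of any difference among the 7 groups, 18 members passed by edgeR where 37% of all genes tested did, led by Psma3 (adjusted p = 0.00075) and Psme4 (adjusted p = 0.000871). Beside the values above, Psma3 was at 60.2, 49.9, 59.3, 52.1 and 47.8 CPM in sham, 43.7, 55.8, 55.4, 47.7 and 44.5 in estradiol, 75.6, 84.7, 81.2, 74.1 and 53.8 in exemestane and 50.4, 51.1, 78.7, 70.9 and 51.6 in anastrozole. Psme4 was at 79, 102, 91.5, 95.4 and 102 CPM in sham, 90.8, 100, 66.8, 89.9 and 84.1 in estradiol, 87.9, 102, 123, 138 and 142 in tamoxifen, 143, 108, 131, 132 and 97.7 in exemestane and 92, 81.6, 89.9, 127 and 75.5 in anastrozole. All libraries of sham and estradiol were low for both genes, and in the other groups the high libraries were of class B. With class in the model none passed (0.0278% of all genes), and 3 had an unadjusted p under 0.05 (12.7% of all genes).

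The contrast of library classes called the most members, as it did for all genes tested. The split was drawn from the deposited values of these same libraries. Its p-values and SEs are thus not those of a label set independently. In the model with group and class, 27 of 46 members passed by edgeR, 13 higher and 14 lower in class B, where 51.9% of all genes tested did (25.5% higher and 26.3% lower). The median size of the log2 fold change by class was 0.16 over the members, smaller than the 0.233 over all genes tested, again without matching for expression level. Psma3 ranged over 43.7 to 60.2 CPM in the 20 class A libraries and over 68.6 to 93.1 in the 15 of class B (0.55 ± 0.057). Psmc6 ranged over 39.4 to 51.7 CPM in the former and over 56.5 to 77.8 in the latter (0.54 ± 0.054). For neither gene did the classes overlap, but the share of all genes tested without overlap between classes was not computed. Psmb6 went the other way, with some overlap, from 22.2 ± 3.26 CPM in class A to 12.8 ± 2.16 in class B (SD, n = 20 and 15; -0.70 ± 0.11).

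The direction differed between and within parts of the complex. Of the 7 core alpha subunits 4 were higher (Psma3, Psma6, Psma4 and Psma1) and 1 lower (Psma7), while of the 8 core beta subunits 1 was higher (Psmb1) and 5 lower (Psmb6, Psmb10, Psmb5, Psmb4 and Psmb3). The summed level of the alpha subunits ran from 288 to 318 CPM over class A libraries and from 326 to 394 over class B libraries, without overlap, and that of the beta subunits was 336 to 375 and 305 to 352. Mean alpha sums were 299 and 355 CPM, and much of that difference lay in Psma3, with means of 52.4 and 80.8. Psma7 had means of 48.2 and 38.9. Sums over like sets of other genes were not compared. In the cap, Psmc6 and Psmc1 were higher and Psmc3, Psmc4 and Psmc5 lower among the ATPases. Psmd12, Psmd14, Psmd6 and Psmd1 were higher and Psmd4, Psmd3 and Psmd2 lower among the non-ATPases. Of the chaperones, Psmd5 was higher and Psmd9 (-0.43 ± 0.07) and Psmg3 (-0.51 ± 0.18) were lower, and of the activators only Psme4 passed (0.40 ± 0.077). A ring or cap whose subunits are needed in fixed proportion thus had transcripts on both sides of the class split, and of the sums over the 2 core rings the alpha sums did not overlap between classes while the beta sums did.

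**Figure D3:**
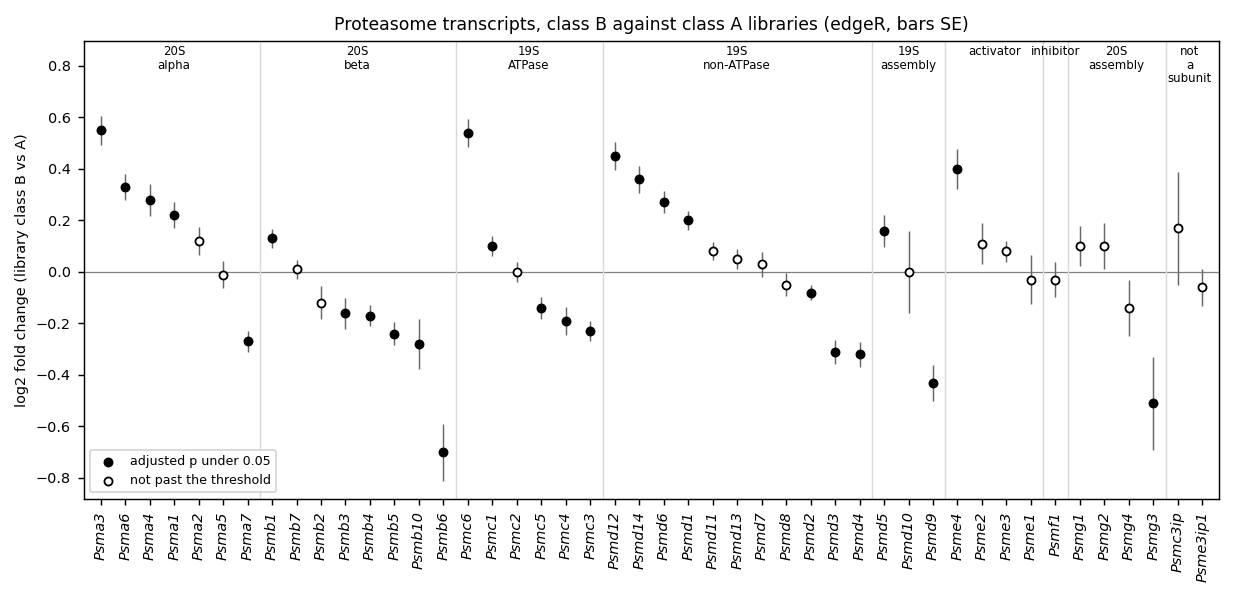
Log2 fold change of each of the 46 members in class B against class A libraries, with group in the model, grouped by role (filled circles: adjusted p under 0.05; bars: SE). Alpha subunits lie mostly above 0 and beta subunits mostly below, and both cap groups span both sides.

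**Figure D4:**
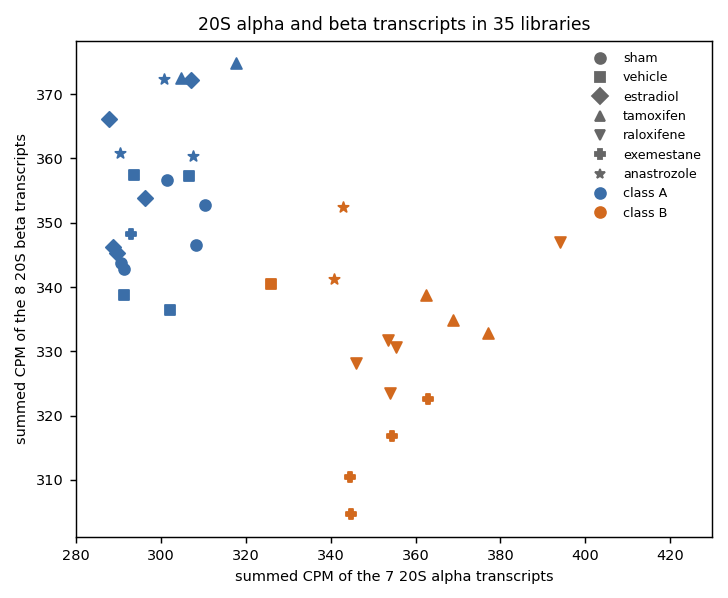
Summed CPM of the 7 alpha transcripts (horizontal axis) and the 8 beta transcripts (vertical axis) of the 20S core in each of the 35 libraries, by group (symbol) and library class (colour); axes do not start at 0. Class A libraries lie at 288 to 318 for alpha, and class B libraries at 326 to 394.

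The classes were defined from the factors that the authors' normalized table applies, so that these differ by class is fixed by the definition, and their size for the members is given as a description. Class B factors stood 0.28 above class A for Psma3 and 0.31 for Psmc6 on the log2 scale, and 0.16 below for Psmb6 (-0.16) and 0.27 below for Psmb5 (-0.27). Across the 46 members the factor difference and the class fold had a Pearson r of 0.785 and a Spearman rho of 0.822 and shared their sign in 37; across 14051 genes with a count in every library r was 0.803 and rho 0.832. These correlations are across genes, which share libraries and depth and are not independent, and serve as a description. With these factors in place of TMM the class count was 16 of 46, 8 higher and 8 lower. The share of all genes by class under these factors was not set beside it. The raloxifene count was 6, all higher, where 6.94% of all genes tested with these factors passed. Psmd4 (factor difference -0.05, class fold -0.32) and Psmg3 (-0.01 and -0.51) were examples of a class fold with little difference in the factor. The part of these factors in the class pattern was not tested.

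**Figure D5:**
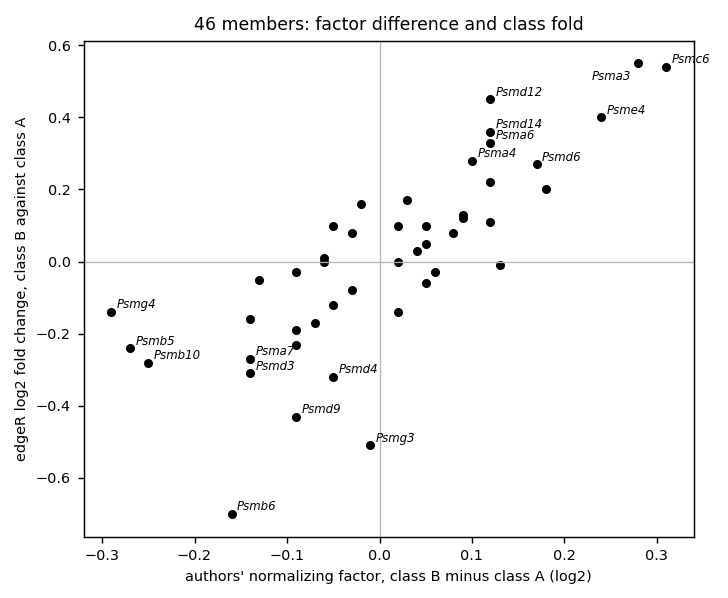
For each of the 46 members, the class B minus class A difference in the normalizing factor implied by the 2 deposited tables (horizontal axis, log2) and the edgeR class fold (vertical axis, log2). Psma3 and Psmc6 lie at the upper right, with factor differences of 0.28 and 0.31, and Psmb6 lies lowest.

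With the means of group and class removed, proteasome transcripts showed little common variation from library to library. The median Pearson r over the 1035 pairs of members was 0.03 (quartiles -0.12 and 0.17; 35 libraries), beside 0 (-0.15 and 0.15) over all pairs of 1442 tested genes spaced evenly through the table. It was 0.04 among the alpha subunits, 0 among the beta subunits, 0.1 among the ATPases and -0.03 among the non-ATPases of the cap. Psma3 and Psmc6, a pair singled out after their values were seen, had an r of 0.49, against 0.88 before the class means were removed. These values are a description, and the pairs share libraries and depth. Counting error, which makes such correlations smaller in size, was not taken out, so a weak common variation could be missed.

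The starts of 4 genes are shown because, among members described library by library, these had the largest class folds in each direction (2 higher and 2 lower in class B). Each line gives the 250 bases before the annotated start in RefSeq (rat build GRCr8), 5′ to 3′ on the gene's strand, with capitals for matches to the motifs named next: Psma3 at chr6:95219499-95219748 (plus strand), Psmc6 at chr15:21022064-21022313 (plus), Psmb6 at chr10:55737638-55737887 (plus) and Psmd4 at chr2:185297202-185297451 (minus).
Psma3: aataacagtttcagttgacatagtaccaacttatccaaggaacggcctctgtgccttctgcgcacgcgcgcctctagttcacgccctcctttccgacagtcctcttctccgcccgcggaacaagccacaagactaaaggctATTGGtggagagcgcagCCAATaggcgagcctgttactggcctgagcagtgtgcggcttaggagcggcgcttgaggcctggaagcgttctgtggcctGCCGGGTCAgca
Psmc6: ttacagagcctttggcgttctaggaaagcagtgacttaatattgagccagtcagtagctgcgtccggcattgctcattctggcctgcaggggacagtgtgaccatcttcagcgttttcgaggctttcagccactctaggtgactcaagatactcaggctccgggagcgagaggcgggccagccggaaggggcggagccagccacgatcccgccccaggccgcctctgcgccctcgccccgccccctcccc
Psmb6: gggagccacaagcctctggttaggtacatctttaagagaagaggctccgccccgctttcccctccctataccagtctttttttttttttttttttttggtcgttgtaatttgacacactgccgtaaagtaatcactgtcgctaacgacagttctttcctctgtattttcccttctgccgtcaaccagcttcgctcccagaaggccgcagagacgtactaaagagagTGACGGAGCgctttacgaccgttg
Psmd4: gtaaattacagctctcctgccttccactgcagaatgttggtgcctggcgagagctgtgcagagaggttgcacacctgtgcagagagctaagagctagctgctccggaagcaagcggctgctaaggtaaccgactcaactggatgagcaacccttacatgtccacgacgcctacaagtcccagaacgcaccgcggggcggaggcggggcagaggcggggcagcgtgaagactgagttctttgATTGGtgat

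These promoters were searched on both strands for the antioxidant response element core TGACNNNGC, which the Nfe2l1 and Nfe2l2 factors bind in human and mouse cells, and for CCAAT, the ETS site CCGGAAGT and TATAAA. The searched motifs overlapped at no position in the 4 sequences. The response element core was found in Psma3, which was higher in class B, and in Psmb6, which was lower; Psma3 also held 2 CCAAT boxes, Psmd4 held 1 CCAAT box and Psmc6 held none of the 4. Of the 42 members with a promoter sequence (all but Psma7, Psmd6, Psmd12 and Psmd14), 7 held the response element core (16.7%, against 10.1% of 33465 rat promoters of the same length): Psma3, Psmb2, Psmb5, Psmb6, Psmd1, Psmd9 and Psme4. Of these 7, 3 were higher in class B, 3 lower and 1 was not called. CCAAT was in 50% of the members' promoters and 34% of all, the ETS site in 14.3% and 3.1%, and TATAAA in 9.52% and 12.9%. The median GC content was 57% over the members' promoters and 51.2% over all, and the motif shares were not matched for it. Members higher in class B had a median promoter GC content of 59% (n = 10), those lower 52.8% (n = 13) and those not called 56.8% (n = 19). A match is a run of letters and no evidence of binding.

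Genes that serve the proteasome under other names also differed in both directions. Of a list of 33 such genes (ubiquitin genes, cap-associated deubiquitinases and receptors, shuttle factors, regulators of proteasome expression), 31 were tested. In raloxifene 12 of 31 passed by edgeR, 9 higher and 3 lower, beside 24.8% of all genes (13.4% higher and 11.4% lower). Their median log2 fold change was 0.0332. Usp14, a deubiquitinase that docks on the cap, was at 117 ± 12.6 CPM in vehicle and 163 ± 11 in raloxifene (SD, n = 5; 0.47), and Zfand5, a proteasome activator, at 124 ± 10.3 and 177 ± 7.41 (0.51). Txnl1, a thioredoxin-like protein of the cap, rose by 0.42 and Ecpas, an adaptor that binds the proteasome, by 0.32. In exemestane 4 passed, all higher, beside 6.51% of all genes (4.06% higher): Ublcp1, a phosphatase of the proteasome (0.49), Txnl1 (0.32), Rad23b, a shuttle factor (0.18), and Uchl5, a deubiquitinase of the cap (0.54).

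By class 21 of the 31 passed, 12 higher and 9 lower in class B, beside 51.9% of all genes (25.5% higher and 26.3% lower). Among them were Usp14 (0.50), Zfand5 (0.57) and Uchl5 (0.60) higher and Ubb, which encodes ubiquitin (-0.50), and Adrm1, a ubiquitin receptor of the cap (-0.42), lower. With class in the model none passed in raloxifene or exemestane. Ubb then passed in estradiol against vehicle (0.21 ± 0.048, adjusted p = 0.0402 by edgeR; 0.298% of all genes; 0.30 and adjusted p = 0.448 without class). The list was chosen with earlier results of these data known.

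Several members have like-named copies in the rat genome, which bears on their values. RefSeq lists 52 copies (pseudogenes or like genes) for 19 of the 46 members, among them 2 for Psma3, 2 for Psmc6, 3 for Psmb6, 5 for Psma6, 3 for Psma7, 3 for Psmc4 and 10 for Psmb3. The annotation the authors counted against is not given in the sources used here, so reads that fit a copy may have been shared with or withheld from these genes, and their levels are uncertain to that extent. Psmd4, Psmd3, Psme4, Psma4, Psmb10, Psmf1 and Psmd9 have none listed.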

How the data were processed

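Hippocampal poly(A) RNA was sequenced from 35 stranded libraries (paired ends, 100 bp, 30 M reads aimed at), per the labels. The authors deposited a table of expected counts, which are whole numbers and were used unchanged, and a table of normalized signal; dividing one by the other gives a separate factor for each gene in each library. Salmon and DESeq2 are named in the submitters' processing notes; versions, genome build and annotation are not given in the sources used here.

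Counts were tested in edgeR 4.0.16 (R 4.3.3; limma 3.58.1) (TMM factors; filterByExpr by group; robust quasi-likelihood F-test; 35 libraries in 1 fit). Adjusted p-values are Benjamini-Hochberg over 14411 genes, threshold 0.05; SEs come from the fold and its F statistic. The method was tested on simulated counts with known folds in raloxifene and no library classes, so that test does not bear on the class split. CPM use TMM-scaled totals; the common biological coefficient of variation came to 0.152. Replicates of a group differed by 2.53 to 35.8 times counting error (chi-squared per degree of freedom), so each library was kept as its own replicate.

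Library class is the sign of the first component (72.3% of variance, the second 1.69%) of the log ratio of the 2 deposited tables over 14326 genes, centred by library and gene. Alternatives were class as a term, RLE size factors, no filter, the authors' factors as offsets, DESeq2 1.42.0, the 2 groups only, 1 class only and leaving out libraries. Leaving out each of the 35 libraries in the class and 7-group tests, and the class test in groups with both classes, were added after seeing the data.

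The 2 members of smallest p in each of the 8 comparisons and in the 7-group test are given library by library there; of other genes of the pathway, at most 4 called per comparison. Members given by mean, range or change alone, Ubb, Adrm1 and Rn7sl1 were named after their values were seen. A few genes of the pathway list are not reported here. Promoter sequences are RefSeq's (GRCr8). Members and lists were chosen with earlier results of these data known, library class included.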

Additional observations from a re-analysis of the deposited data

Results flagged for a closer look

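In 91 groups of 5 libraries (13 members in 7 groups), 5 held a library whose gap to the nearest other was large against the range of the group (by Dixon's criterion); chance flags about 1 group in 20. Psmc4, an ATPase of the 19S cap, accounted for 3: vehicle library 1 at 54.4 CPM (others 47.8 to 49.6), estradiol library 1 at 46 CPM (others 56.5 to 59.1) and exemestane library 5 at 55.4 CPM (others 39.9 to 44.3). Psmc6, of the same ring, was at 51.7 CPM in estradiol library 2 (others 41.7 to 44.5). Psmd4, the ubiquitin receptor, was at 57 CPM in exemestane library 5 (others 36.4 to 41.1). Exemestane library 5 is the only class A library of its group, and the vehicle and estradiol libraries flagged are of class A as well.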

How the results depend on the processing

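No paired analysis was possible because library titles carry no replicate numbers shared between groups. Counts of members called in sham, estradiol, anastrozole and tamoxifen against vehicle, and in tamoxifen against raloxifene, were 0 under every setting run, except 4 for tamoxifen without its library 2. For raloxifene the count was 14, and 0 with class as a term, 6 with the authors' factors and 0 in class B libraries alone; leaving out single libraries gave 5 to 16, and 0 to 0 with class. For exemestane it was 2, and 10 by DESeq2 and 0 with class, the authors' factors, the 2 groups only, class A only or class B only; leaving out libraries gave 0 to 17, and 0 to 0 with class. For exemestane against anastrozole it was 0, and 7 by DESeq2; leaving out libraries gave 0 to 14, and 0 to 1 with class. The 7-group count was 18 (37% of all genes), 0 with class (0.0278%), 12 with the authors' factors and 16 to 23 leaving out libraries. The class count was 27 (51.9%), and 16 with the authors' factors and 23 to 29 leaving out libraries. Shares of all genes moved with the setting too. In raloxifene they were 24.8%, 0.00694% with class, 6.94% with the authors' factors and 12% to 31% leaving out libraries. In exemestane they were 6.51%, 18% by DESeq2, 1.5% with the authors' factors and 0% to 28.7% leaving out libraries. Against anastrozole, exemestane had 0%, 12.3% by DESeq2 and 0% to 23.8% leaving out libraries. Signs turned for Psmd4 in exemestane (0.06 in class A only), Psmd14 in raloxifene (-0.08 in class B only) and Psmf1 by class (0.06 with the authors' factors). With class and 1 library left out, the raloxifene folds ranged over -0.01 to 0.17 for Psma4, -0.14 to 0.13 for Psmb6, -0.07 to 0.04 for Psmc3, 0 to 0.07 for Psmd1, -0.03 to 0.12 for Psmd12, -0.01 to 0.08 for Psmd14, -0.07 to 0.04 for Psmd3, -0.07 to 0.05 for Psmd4 and -0.08 to 0.11 for Psmd9; that of Psmf1 by class ranged over -0.06 to 0.01. The causes were not tested. Of the other comparisons of single folds, 993 kept direction and side of the threshold, 261 fell below it and 11 rose past it. Members of few counts (Psmc3ip, Psmd10, Psmg4) are limited by depth.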
